A study of Homo sapiens with 12 samples.

Results

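The levels of 49 genes of DNA replication and of the step from G1 to S phase were compared across 4 groups of ARPE-19 libraries. The genes were listed by name in 9 roles. Each name matched 1 of the 40591 rows of the count table that carry a gene symbol. All 49 were among the 15179 genes that passed the filter on low counts. ARPE-19 cells are an established line grown from human retinal pigment epithelium (RPE), the pigmented layer behind the photoreceptors. Poly(A) RNA was sequenced from 3 libraries in each group. WT denotes ARPE-19 cells for which the labels name no open reading frame (ORF). GFP denotes stable cells that express green fluorescent protein. GSTA4 denotes stable cells that express glutathione S-transferase alpha 4, an enzyme that clears lipid aldehydes. OSK denotes stable cells whose ORF the labels give by that abbreviation only. Their libraries held high mRNA of the reprogramming factors POU5F1 (OCT4), SOX2 and KLF4. The stable cells had expressed their ORF for 4 days. The labels do not say how WT cells were handled, which promoter drives an ORF, or whether the libraries of a group come from separate cultures. An ORF and any other difference between the lines therefore cannot be told apart, and p-values measure the spread between these libraries, which may be technical.

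DNA is copied once per cell cycle, in S phase. During G1 the origin recognition complex, CDC6 and CDT1 load the MCM helicase onto origins, and at the start of S phase CDC45 and the GINS complex switch it on. E2F transcription factors, held back by the retinoblastoma protein until cyclin-dependent kinases release them, drive many of these genes, so that their mRNAs are high in dividing cells and low in resting ones. RPE cells in the eye hardly divide, while the ARPE-19 line does so in culture. In bulk RNA, a larger share of cells in S phase and more RNA per cell cannot be told apart.

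Libraries held 12630675 (GFP replicate 1) to 17045454 (WT replicate 3) counts, and 10910 to 22015 of these fell on the 49 genes. Values are given as CPM, a library's counts scaled to a common depth with TMM, in the order of replicates 1 to 3, where a floor of 3 reads stood at 0.177 to 0.228 CPM. GSTA4 mRNA was at 396 to 431 CPM in the GSTA4 libraries and at 22.5 or below elsewhere. POU5F1, SOX2 and KLF4 were each at 623 CPM or above in every OSK library and at 2.67 or below in the others, so the ORF genes matched the labels. Of 10 RPE markers, 8 were above the floor in every library, while the visual-cycle gene RPE65 and TTR lay near it. Their summed level was 2221 to 2527 CPM in WT, 1894 to 2136 in GFP, 1396 to 1420 in GSTA4 and 1152 to 1246 in OSK. Most of that sum was the keratins KRT8 and KRT18, with means of 1247 and 432 CPM in WT and 843 and 314 in GFP. The other RPE markers above the floor were higher in GFP than in WT by their means: MITF 250 beside 207 CPM, OTX2 192 beside 186 and PMEL 357 beside 245. So were TYR (66.0 beside 21.2), BEST1 (8.65 beside 2.96) and RLBP1 (5.24 beside 1.46). In OSK, MITF, PMEL and RLBP1 had lower means than in WT (146, 111 and 0.692 CPM), as had KRT8, KRT18 and OTX2 (501, 228 and 160). BEST1 was close to its WT mean (2.85) and TYR was higher (33.7). GSTA4 means were below those of WT for KRT8, KRT18, MITF and OTX2 (679, 292, 186 and 131 CPM). They were also lower for PMEL, TYR and RLBP1 (101, 11.9 and 0.813) and higher for BEST1 (5.39). No marker of pluripotent cells exceeded the floor throughout any group, and 5 of 6 were at 0 in all OSK libraries. Mitochondrial genes took 6.02% ± 0.0366 of reads in WT (SD, n = 3), 6.32% ± 0.248 in GFP, 7.73% ± 0.160 in GSTA4, and a share of 6.85% ± 0.0427 in OSK. The part of these shifts in the results was not tested. GFP replicate 1 had 27349 named genes with at least 1 read, where the others had 19488 to 22073, and WT replicate 1 differed more from WT replicates 2 and 3 than those did from each other. Counts of changed genes are therefore also given without each of these libraries.

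The replication genes were lowest in WT and highest in OSK, with GFP and GSTA4 between them. Summed over the 49 genes, WT was at 819 ± 18.6 CPM (SD, n = 3), GFP at 980 ± 31.5, GSTA4 at 964 ± 15.2 and OSK at 1357 ± 57.7. WT had the lowest mean for 41 genes and OSK the highest for 38. The order WT, GSTA4, GFP, OSK held for 25 genes and the order WT, GFP, GSTA4, OSK for 9. Ranks of group means were not counted over all genes, so these counts have no share beside them. The highest group mean was 13.7 times the lowest for E2F2 and 11.5 times for TK1, but 1.24 times for MCM7, 1.13 times for SLBP and 1.12 times for DUT. The median of this ratio was 2.03.

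**Figure D1:**
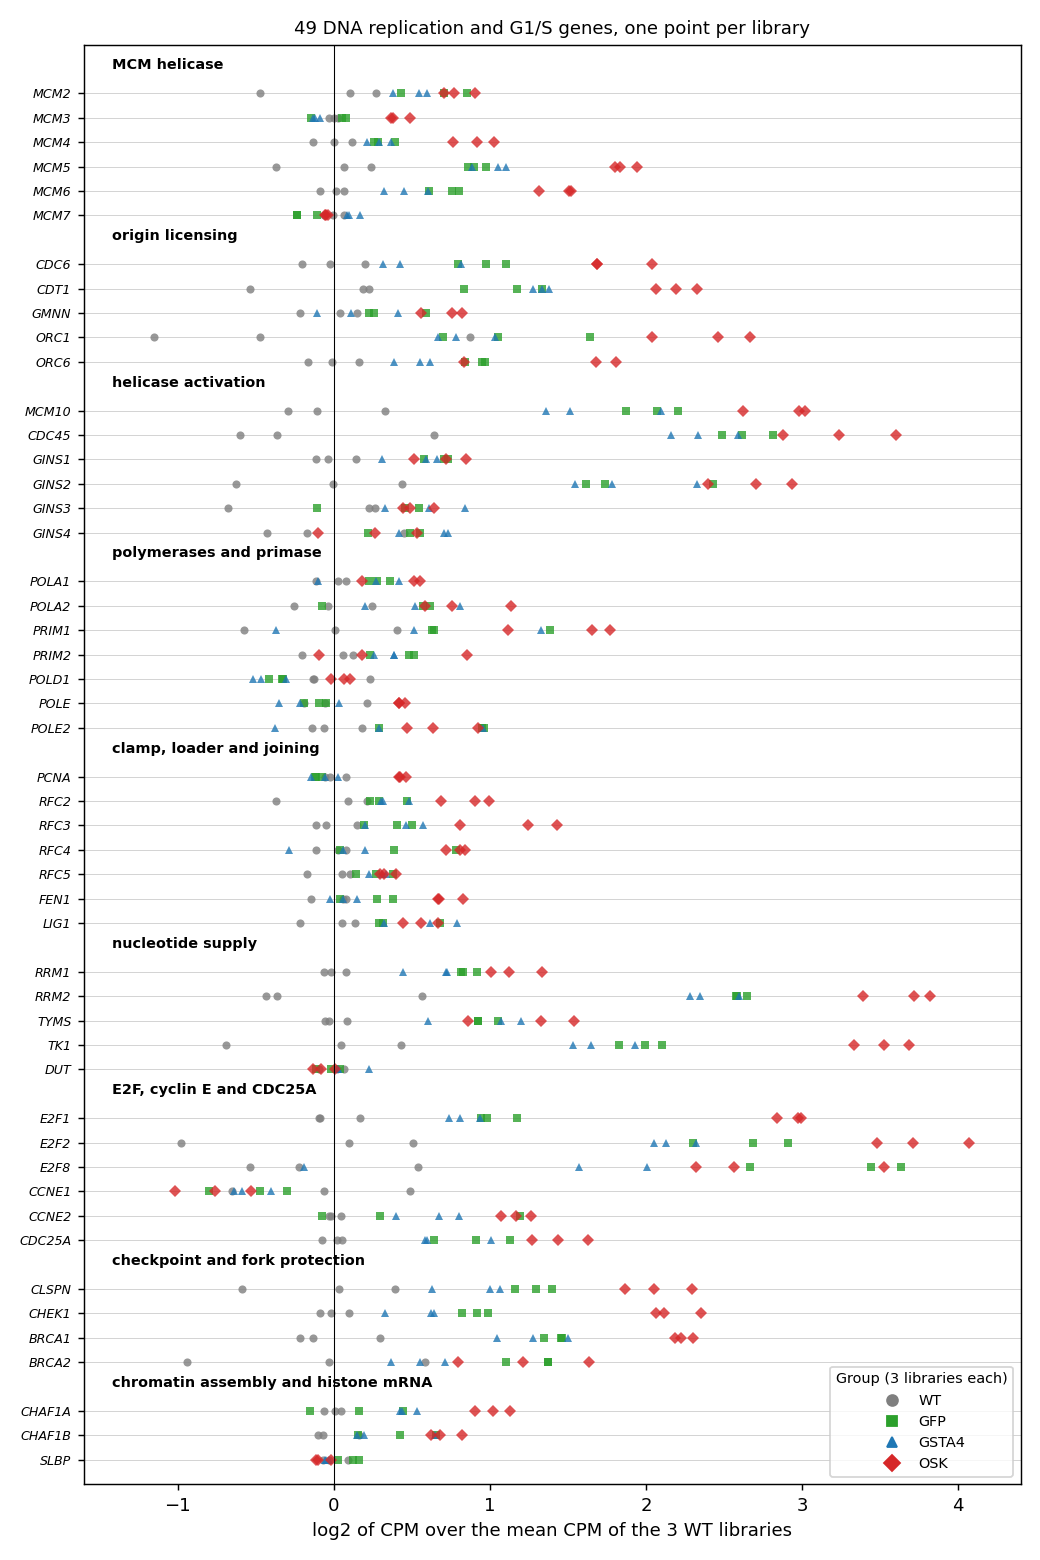
Each row is 1 of the 49 genes, grouped by role, and each point is 1 library. The x axis is the log2 of its CPM over the mean CPM of the 3 WT libraries (grey circles, spread around 0), with GFP as green squares, GSTA4 as blue triangles and OSK as red diamonds. OSK lies farthest to the right in most rows, GFP and GSTA4 overlap in most, and MCM7, DUT and SLBP stay close to 0 in every group.

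By edgeR's quasi-likelihood test over the whole table, 42 of the 49 genes differed among the 4 groups, which 66.9% of all genes tested did. In OSK against WT, 40 rose and 1 fell, where 45.4% of all genes passed the test and 22.7% passed it as higher. The median log2 fold change of the 49 was 1.02, beside -0.01 over all genes. In GFP against WT, 26 rose and 2 fell (22.2% of all genes passed, 11% as higher), with a median of 0.68 beside 0.01. In OSK against GFP, 27 rose and 1 fell (45.9% of all genes, 23.1% as higher), with a median of 0.53 beside -0.02. In OSK against GSTA4, 32 rose and 1 fell (47.8%, 24.1% as higher), with a median of 0.60. In GSTA4 against WT, 26 rose and 1 fell (38.6%, 19.7% as higher), with a median of 0.53. In GSTA4 against GFP 1 gene rose and 3 fell, or 8.16% of the list where 29.2% of all genes passed, and the median was -0.14. Libraries of the 2 groups did not overlap for 42 genes in OSK against WT (53.5% of all genes), 35 in GFP against WT (34.6%), 27 in OSK against GFP (54.7%), 32 in GSTA4 against WT (49%), 35 in OSK against GSTA4 (58%) and 10 in GSTA4 against GFP (42.3%). In OSK against GFP the 27 of 49 is close to the share over all genes. These comparisons share libraries, so their counts are not independent of each other. The lists of genes used here were chosen with earlier results of these data known. Their shares and medians beside those of all genes are therefore descriptions and no independent support.

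Larger changes were counted with the added limit of a log2 change of at least 1. They were all higher in 5 comparisons: 25 in OSK against WT (12.2% of all genes in either direction, 6.54% as higher), 13 in GFP against WT (3.31%, 2.55% as higher), 9 in OSK against GSTA4 (13.1%, 7.14%), 9 in GSTA4 against WT (7.82%, 3.85%) and 7 in OSK against GFP (11.6%, 5.07%). In GSTA4 against GFP the only one was E2F8, which was lower (5.7% of all genes in either direction). E2F8 is also among those of GFP against WT and OSK against WT, and it passed the filter only through GFP and OSK libraries. At adjusted p alone, without the limit on size, leaving out WT replicate 1 turned the 28 called in GFP against WT into 24, all higher. It left 41 in OSK against WT, all higher, and 39 by the F test over the 4 groups. Without GFP replicate 1 the counts at adjusted p alone were 27 in GFP against WT, 28 in OSK against GFP and 4 in GSTA4 against GFP. The 4 in GSTA4 against GFP became 9 without WT replicate 1, 1 without GSTA4 replicate 1, 2 without GSTA4 replicate 2 and 2 without GFP replicate 2.

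**Figure D2:**
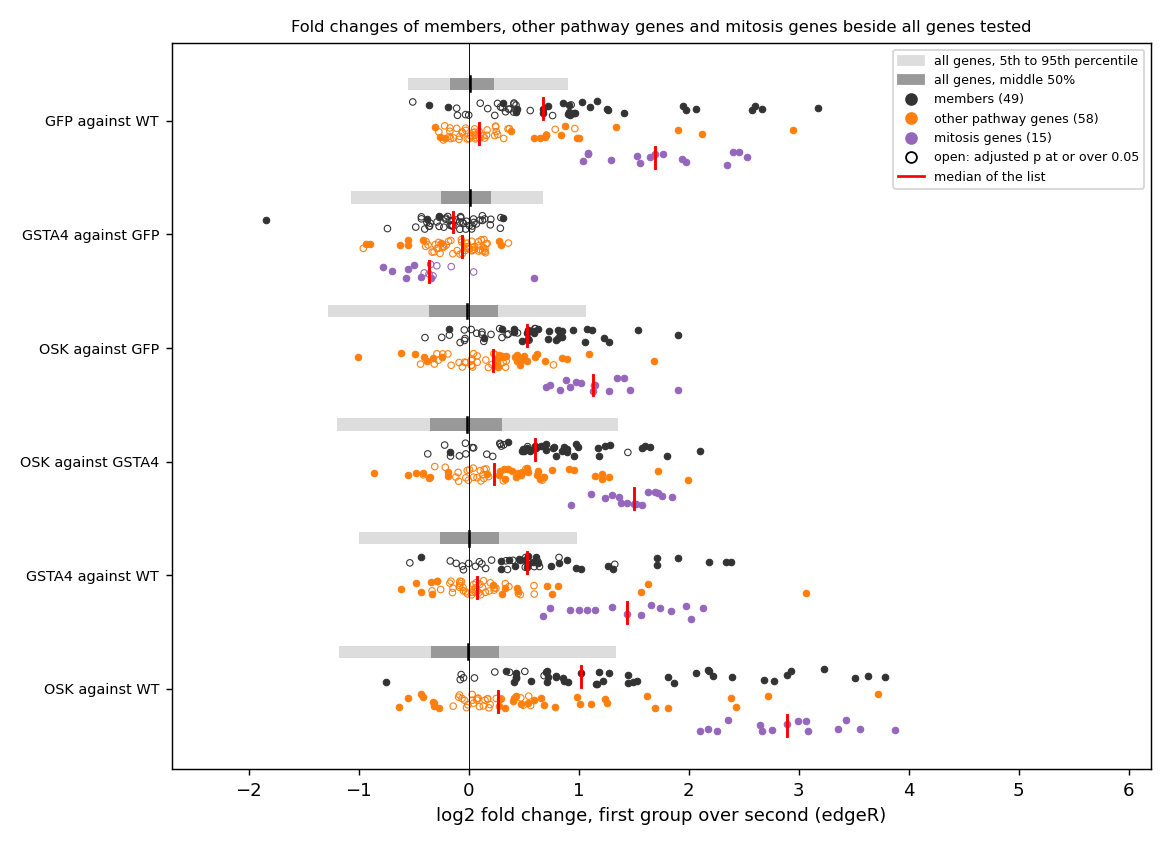
Log2 fold changes of the 49 genes (black), 58 further genes of the pathway (orange) and 15 mitosis genes (purple) in the 6 comparisons, each point 1 gene, filled where the adjusted p was under 0.05, with the list's median as a red line. Grey bars give the middle 50% and the 5th to 95th percentile of all 15179 genes. The medians of the 49 genes lie at 0.53 to 1.02 in 5 comparisons and at -0.14 in GSTA4 against GFP.

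Promoter sequences were available for 44 of the 49 genes in RefSeq annotation (GRCh38.p14), as 250 bases before to 50 after each start. Of these, 23 (52.3%) held an E2F motif, spelled TTTCCCGC, TTTGGCGC, TTTCGCGC or TTTGCCGC on either strand, as did 3.99% of 27305 gene symbols in the same table. Of 31 matches, 22 began within 60 bases of the start. The CCAAT box, bound by NF-Y and searched on both strands, was in 25 (56.8%) against 39.7% of all symbols. The letters TTTGAA of the cell cycle homology region were in 2 (4.55%) against 18.2%. The other 5 genes are CCNE2, MCM4, E2F8, GINS4 and MCM5. Shown are the 200 bases before the start for 4 genes with contrasting values. E2F1, MCM6 and TK1 rose in OSK, and DUT passed no test of the main fit. Capitals mark E2F matches and CCAAT boxes on either strand, and each sequence runs 5′ to 3′ on the gene's own strand.
E2F1, chr20:33686386-33686585, minus strand: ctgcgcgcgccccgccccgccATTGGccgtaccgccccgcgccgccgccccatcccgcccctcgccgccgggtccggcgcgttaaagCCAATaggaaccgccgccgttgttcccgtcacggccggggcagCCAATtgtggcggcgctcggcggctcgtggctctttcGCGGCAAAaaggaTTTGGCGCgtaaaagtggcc
MCM6, chr2:135876444-135876643, minus strand: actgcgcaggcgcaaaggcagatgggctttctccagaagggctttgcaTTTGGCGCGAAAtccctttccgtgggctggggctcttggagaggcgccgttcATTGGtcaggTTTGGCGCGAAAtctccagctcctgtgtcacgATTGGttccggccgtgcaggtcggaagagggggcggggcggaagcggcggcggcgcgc
DUT, chr15:48331997-48332196, plus strand: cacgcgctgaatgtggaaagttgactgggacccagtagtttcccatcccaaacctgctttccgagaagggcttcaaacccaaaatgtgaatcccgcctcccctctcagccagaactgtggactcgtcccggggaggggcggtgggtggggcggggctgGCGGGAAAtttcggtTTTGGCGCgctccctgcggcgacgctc
TK1, chr17:78187053-78187252, minus strand: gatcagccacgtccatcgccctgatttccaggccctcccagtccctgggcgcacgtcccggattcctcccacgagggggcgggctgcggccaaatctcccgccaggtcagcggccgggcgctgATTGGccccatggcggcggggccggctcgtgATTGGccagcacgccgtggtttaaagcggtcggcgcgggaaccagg

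E2F1 held 2 E2F matches, which began 33 and 20 bases before the start, and 3 CCAAT boxes. MCM6 held 4 matches in 2 runs, each with 2 overlapping matches on opposite strands, and 2 CCAAT boxes. DUT held 2 E2F matches, 42 and 27 bases before the start shown, 1 of 4 in the table, and no CCAAT box. TK1 held no E2F match at either of its 2 starts and 2 CCAAT boxes at the one shown. In OSK against WT the median log2 fold change was 0.80 over the 23 genes with an E2F match and 1.16 over the 21 without. For the CCAAT box it was 1.50 over 25 genes with and 0.72 over 19 without. These medians are descriptions with no test, and no match says only that these letters are not in this window.

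The MCM helicase is a ring of MCM2 to MCM7 that unwinds the double helix ahead of the replication fork. In OSK against WT 5 of its 6 subunits rose and MCM7 did not pass; in GFP against WT 4 rose and MCM7 fell. MCM5 was at 10.3, 15.7 and 13.9 CPM in WT, 24.9, 26.2 and 24.2 in GFP, 24.6, 28.7 and 27.7 in GSTA4, and 46.5, 47.5 and 51.1 in OSK. The WT libraries were below all others, the OSK libraries above all others, and GFP and GSTA4 overlapped. MCM5 rose by 0.92 (log2 fold change, SE 0.118, adjusted p = 1.6e-05) in GFP against WT. OSK was higher than GFP by 0.95 (SE 0.108, adjusted p = 3.59e-07). MCM6 was at 22.6, 20.3 and 21.8 CPM in WT, 33, 36.6 and 37.7 in GFP, 27, 32.8 and 29.6 in GSTA4, and 53.9, 62 and 61.3 in OSK. No group overlapped another for MCM6, in the order WT, GSTA4, GFP, OSK. It rose by 0.73 in GFP against WT (SE 0.0931, adjusted p = 1.59e-05) and by 0.72 in OSK against GFP (SE 0.0877, adjusted p = 8.8e-07). In GSTA4 against GFP it fell by 0.27 on the log2 scale (SE 0.0912, adjusted p = 0.0329). That last call was lost without GFP replicate 2 (adjusted p = 0.0793), GFP replicate 3 (0.102), GSTA4 replicate 1 (0.168) or GSTA4 replicate 3 (0.0862). It was also lost without the filter on low counts (0.065).

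MCM7 followed another pattern. Its level was 159, 145 and 150 CPM in WT, 129, 129 and 141 in GFP, 170, 162 and 161 in GSTA4, and 146, 148 and 146 in OSK. All GSTA4 libraries were above the other 9 and all GFP libraries below them, while WT and OSK overlapped. MCM7 rose by 0.31 in GSTA4 against GFP (log2, SE 0.0578, adjusted p = 0.000354), a call that held in every alternative run other than the added limit of a log2 change of at least 1. Its other calls were small and rested on single libraries. It fell by 0.19 in GFP against WT (SE 0.0578, adjusted p = 0.0228; 0.0811 without WT replicate 1, 0.0632 without GFP replicate 1, 0.0928 without GFP replicate 2). In OSK against GSTA4 it fell by 0.17 (SE 0.0575, adjusted p = 0.0212; 0.0942 without GSTA4 replicate 1, and 0.0517 to 0.0866 without any 1 of the OSK libraries). In OSK against GFP it rose by 0.14 (adjusted p = 0.0495), which fell to 0.07 with library size alone (adjusted p = 0.33). That call was lost without any 1 library other than WT replicate 1 or GFP replicate 3 (adjusted p up to 0.131). Without the filter on low counts MCM7 passed neither in OSK against GSTA4 (0.108) nor in OSK against GFP (0.104). With only the 6 libraries compared it passed neither in GFP against WT (0.0847) nor in OSK against GFP (0.0681). MCM2, MCM3 and MCM4 rose in OSK against WT by 0.80, 0.41 and 0.91. MCM3 did not pass in GFP against WT (0.00, 95% interval -0.14 to 0.14), and MCM2 did not pass in OSK against GFP (0.12, interval -0.17 to 0.41). MCM4 rose by 0.31 in GFP against WT, a call lost without WT replicate 3 (adjusted p = 0.0638) or GFP replicate 3 (0.0564). It rose by 0.29 in GSTA4 against WT, lost without WT replicate 3 (adjusted p = 0.0599) or GSTA4 replicate 3 (0.0532). MCM2 rose by 0.51 in GSTA4 against WT and by 0.32 without WT replicate 1, still past the test.

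Origin licensing is carried out by ORC1 and ORC6 of the origin recognition complex with the loaders CDC6 and CDT1, and geminin (GMNN) blocks CDT1 after S phase has begun. All 5 genes rose in OSK against WT, 4 of 5 in GFP against WT, and none passed in GSTA4 against GFP. CDC6 came close in the last (-0.43, adjusted p = 0.0566) and passed in 5 of 19 alternative runs. CDC6 was at 5.91, 4.48 and 5.07 CPM in WT, 11.1, 8.96 and 10.1 in GFP, 6.42, 6.91 and 9.08 in GSTA4, and 16.6, 21.2 and 16.6 in OSK. GFP and GSTA4 overlapped by 1 library, and OSK and WT stood apart from both. CDC6 rose by 0.96 in GFP against WT (log2, SE 0.171, adjusted p = 0.000476) and by 0.85 in OSK against GFP (SE 0.154, adjusted p = 0.000119). CDT1 was at 2.3, 1.4 and 2.36 CPM in WT, 4.56, 5.09 and 3.6 in GFP, 5.08, 5.25 and 4.88 in GSTA4, and 9.25, 10.1 and 8.44 in OSK. The groups were apart save GFP and GSTA4. CDT1 rose by 1.11 in GFP against WT (SE 0.225, adjusted p = 0.00154) and by 1.07 in OSK against GFP (SE 0.194, adjusted p = 0.000125).

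Of the remaining licensing genes, GMNN changed least, with 0.71 in OSK against WT (adjusted p = 0.000576) and 0.36 in GFP against WT, which did not pass (95% interval 0.04 to 0.68). ORC1 rose by 2.40 in OSK against WT (SE 0.379, adjusted p = 2.48e-05). With only the 6 libraries compared, its call in GFP against WT (1.17, adjusted p = 0.0454) was lost (0.116). It was also lost when any 1 library other than WT replicate 1 or GFP replicate 3 was left out. Without WT replicate 1, where ORC1 was at 1.68 CPM beside 0.661 and 0.413 in the other WT libraries, that change was 1.96. ORC6 rose by 1.50 in OSK against WT. In OSK against GFP it was called at 0.58 (adjusted p = 0.035), but OSK replicate 1, at 4.7 CPM, lay below the GFP libraries at 4.73 to 5.17, and the call was lost without any 1 GFP library or without OSK replicate 2 (adjusted p = 0.203) or OSK replicate 3 (0.124). With library size alone the call was lost as well (adjusted p = 0.0655). CDC6 in GSTA4 against WT (0.53, adjusted p = 0.0215) was lost without GSTA4 replicate 3 (0.149), WT replicate 2 (0.0823) or WT replicate 3 (0.0532).

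Helicase activation uses CDC45 and the 4 GINS subunits, which bind MCM2 to MCM7 as the active helicase, and MCM10, which helps it to start. CDC45, MCM10, GINS1 and GINS2 rose in GFP, GSTA4 and OSK against WT, and GINS3 and GINS4 did not pass the F test. CDC45 was at 0.498, 0.587 and 1.18 CPM in WT, 5.32, 4.23 and 4.62 in GFP, 3.81, 3.38 and 4.54 in GSTA4, and 7.12, 9.18 and 5.56 in OSK. All WT libraries were far below the rest, and OSK replicate 3 was only just above GFP replicate 1. CDC45 rose by 2.61 in GFP against WT (log2, SE 0.308, adjusted p = 6.38e-06) and by 2.34 in GSTA4 against WT (SE 0.313, adjusted p = 5.45e-06). Its rise of 0.63 in OSK against GFP (adjusted p = 0.0328) was lost without GFP replicate 2 (0.104), GFP replicate 3 (0.0741), OSK replicate 1 (0.0591) or OSK replicate 2 (0.204). That call was also lost with library size alone (adjusted p = 0.0609). MCM10 was at 0.871, 1.17 and 0.767 CPM in WT, 4.33, 3.44 and 3.94 in GFP, 4, 2.4 and 2.68 in GSTA4, and 5.76, 7.41 and 7.6 in OSK. Again WT was below and OSK above all other libraries. MCM10 rose by 2.06 in GFP against WT (SE 0.284, adjusted p = 3.37e-05) and by 0.83 in OSK against GFP (SE 0.225, adjusted p = 0.00494).

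GINS2 rose by 1.95 in GFP against WT and by 2.68 in OSK against WT (adjusted p = 0.00029 and 5.35e-07). Its smaller calls were lost without single libraries: that in OSK against GFP (0.73, adjusted p = 0.0301) without GFP replicate 2 (0.124), GFP replicate 3 (0.102), OSK replicate 2 (0.131) or OSK replicate 3 (0.0642), and that in OSK against GSTA4 (0.78, adjusted p = 0.0206) without GSTA4 replicate 1 (0.103), GSTA4 replicate 2 (0.0703) or OSK replicate 2 (0.102). The call in OSK against GFP was also lost with library size alone (adjusted p = 0.0554). GINS1 rose by 0.68 in GFP and by 0.70 in OSK, both against WT, and OSK against GFP was 0.02 (95% interval -0.31 to 0.36). Its rise of 0.54 in GSTA4 against WT was lost without WT replicate 3 (adjusted p = 0.058), GSTA4 replicate 1 (0.0653) or GSTA4 replicate 3 (0.0519). GINS3 was at 4.67, 2.42 and 4.54 CPM in WT, 5.32, 5.66 and 3.6 in GFP, 5.91, 4.88 and 6.95 in GSTA4, and 5.27, 5.44 and 6.05 in OSK. GINS4 was at 3.67, 3.08 and 5.66 CPM in WT, 6.08, 5.81 and 4.82 in GFP, 5.53, 6.75 and 6.88 in GSTA4, and 4.98, 3.86 and 5.98 in OSK. Libraries of these groups overlapped for both genes, apart from GINS3 in GSTA4 or OSK against WT, and the F test gave adjusted p = 0.122 for GINS3 and 0.104 for GINS4. GINS4 alone passed a single contrast, GSTA4 against WT (0.61, adjusted p = 0.0373), which was lost without WT replicate 1 (0.0966), WT replicate 2 (0.154), GSTA4 replicate 2 (0.102) or GSTA4 replicate 3 (0.113).

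DNA polymerase alpha with primase (POLA1, POLA2, PRIM1, PRIM2) lays down primers, POLD1 is the catalytic subunit of the lagging-strand polymerase delta, and POLE and POLE2 belong to the leading-strand polymerase epsilon. In GFP against WT none of the 7 rose and POLD1 fell; in OSK against WT 4 rose. POLE was at 53.9, 44.7 and 40.7 CPM in WT, 40.7, 44.9 and 43.5 in GFP, 47.5, 39.9 and 36.5 in GSTA4, and 63.8, 62.2 and 62.1 in OSK. WT, GFP and GSTA4 overlapped, and the 3 OSK libraries lay above them all. POLE rose by 0.54 in OSK against GFP (log2, SE 0.0989, adjusted p = 0.000136) and by 0.43 in OSK against WT (SE 0.0978, adjusted p = 0.00108). POLD1 was at 32, 24.8 and 24.9 CPM in WT, 21.7, 20.4 and 21.6 in GFP, 19.7, 22 and 19 in GSTA4, and 29.3, 28.6 and 26.9 in OSK. WT and OSK overlapped, as did GFP and GSTA4, and the first pair lay above the second. POLD1 fell by 0.36 in GFP against WT (SE 0.104, adjusted p = 0.0172), which was lost without WT replicate 1 (0.139) or GFP replicate 2 (0.0709). It fell by 0.43 in GSTA4 against WT (SE 0.104, adjusted p = 0.00243) and rose by 0.41 in OSK against GFP (SE 0.104, adjusted p = 0.00281).

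POLA2, PRIM2 and POLE2 did not pass the F test (adjusted p = 0.0611, 0.24 and 0.333). POLA2 was at 1.99, 2.42 and 1.71 CPM in WT, 3.04, 1.94 and 3.12 in GFP, 2.35, 2.93 and 3.58 in GSTA4, and 3.06, 4.49 and 3.45 in OSK. The OSK libraries were above the WT libraries, and that contrast alone was called (0.86, adjusted p = 0.0151), though not without WT replicate 3 (0.0622) or OSK replicate 2 (0.0902). PRIM2 was at 6.1, 5.07 and 6.37 CPM in WT, 8.36, 6.88 and 8.15 in GFP, 6.99, 7.66 and 7.64 in GSTA4, and 5.48, 10.6 and 6.61 in OSK. The OSK libraries of PRIM2 overlapped every other group, and the WT libraries lay below those of GFP and GSTA4. POLE2 was at 0.747, 0.881 and 0.708 CPM in WT, 1.52, 1.51 and 0.951 in GFP, 0.953, 0.6 and 1.51 in GSTA4, and 1.21, 1.08 and 1.48 in OSK. WT lay below GFP and OSK but overlapped GSTA4, and with few reads the interval for OSK against WT ran from -0.18 to 1.56. POLA1 rose by 0.43 in OSK against WT (adjusted p = 0.00863; 0.0519 without OSK replicate 2). PRIM1 rose by 1.53 in OSK against WT (adjusted p = 0.00219). Its call in OSK against GSTA4 (0.89, adjusted p = 0.0474) was lost without GSTA4 replicate 1 (0.23), WT replicate 2, GFP replicate 1, GSTA4 replicate 2, OSK replicate 1 or OSK replicate 3, and it was 1.41 without GSTA4 replicate 3.

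The sliding clamp PCNA, its loader (RFC2 to RFC5), the flap nuclease FEN1 and DNA ligase 1 (LIG1) hold polymerases on DNA and join Okazaki fragments. All 7 rose in OSK against WT, 4 in OSK against GFP and only LIG1 in GFP against WT. PCNA was at 79.8, 72.7 and 74.6 CPM in WT, 70.1, 72 and 69.7 in GFP, 72.9, 77.2 and 68.4 in GSTA4, and 105, 101 and 102 in OSK. The 3 OSK libraries stood above the other 9, which lay close together. PCNA rose by 0.54 in OSK against GFP (log2, SE 0.0631, adjusted p = 5.86e-07) and was -0.10 in GFP against WT (95% interval -0.23 to 0.03). RFC3 was at 9.58, 11.5 and 10 CPM in WT, 14.7, 13.8 and 11.9 in GFP, 11.9, 15.5 and 14.3 in GSTA4, and 18.2, 24.6 and 27.9 in OSK. WT was below and OSK above every other library. RFC3 rose by 0.81 in OSK against GFP (SE 0.145, adjusted p = 0.000106). Its change of 0.37 in GFP against WT did not pass (adjusted p = 0.0882). Its call in GSTA4 against WT (0.42, adjusted p = 0.0344) was lost without WT replicate 1 (0.0822), WT replicate 3 (0.085), GSTA4 replicate 2 (0.141) or GSTA4 replicate 3 (0.0937).

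RFC5 had the smallest called rise of the list in OSK against WT. It was at 13.6, 11.2 and 13.1 CPM in WT, 16.4, 15.3 and 13.9 in GFP, 15.9, 14.8 and 15.7 in GSTA4, and 15.5, 16.6 and 15.8 in OSK. All WT libraries were below the others, by little. RFC5 rose by 0.34 in OSK against WT (adjusted p = 0.0184; 0.0919 without WT replicate 2, 0.0656 without OSK replicate 2 and 0.0716 with library size alone) and by 0.29 in GSTA4 against WT (adjusted p = 0.0464), which was lost with DESeq2 (0.0807) and without any 1 library other than WT replicate 1 or GFP replicate 1 (up to 0.181). RFC2, RFC4 and FEN1 rose by 0.72 to 0.87 in OSK against WT. RFC2 was also called in GSTA4 against WT (0.37, adjusted p = 0.044), which fell to 0.21 without WT replicate 1 (adjusted p = 0.25) and was lost without any 1 library other than WT replicate 3, GFP replicate 1 or OSK replicate 2. LIG1 rose by 0.44 in GFP against WT (adjusted p = 0.0188; 0.0733 without WT replicate 1 and 0.125 without GFP replicate 3) and by 0.59 in GSTA4 against WT, while OSK against GSTA4 did not pass (-0.03, 95% interval -0.29 to 0.24).

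Ribonucleotide reductase (large subunit RRM1, small subunit RRM2) makes deoxynucleotides, thymidylate synthase (TYMS) and thymidine kinase 1 (TK1) make thymidine nucleotides, and dUTPase (DUT) keeps uracil out of DNA. RRM1, RRM2, TYMS and TK1 rose in GFP, GSTA4 and OSK against WT, and DUT in none of them. RRM2 was at 1.68, 1.76 and 3.36 CPM in WT, 13.6, 13.5 and 14.2 in GFP, 11.1, 13.7 and 11.6 in GSTA4, and 23.8, 32.1 and 29.9 in OSK. GFP and GSTA4 overlapped, and WT and OSK stood well apart from them. RRM2 rose by 2.58 in GFP against WT (log2, SE 0.199, adjusted p = 2.55e-08), by 2.39 in GSTA4 against WT (SE 0.201, adjusted p = 9.84e-09) and by 3.63 in OSK against WT (SE 0.189, adjusted p = 2.18e-12). TK1 was at 3.05, 5.07 and 6.61 CPM in WT, 17.4, 19.6 and 21.1 in GFP, 18.7, 15.4 and 14.2 in GSTA4, and 49.5, 56.6 and 63.2 in OSK. GFP and GSTA4 again overlapped between WT and OSK. In OSK against GFP, TK1 rose by 1.54 (SE 0.146, adjusted p = 2.63e-08). RRM2 rose by 1.05 in that comparison (SE 0.151, adjusted p = 8.34e-06).

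DUT was at 29.1, 31.4 and 32.5 CPM in WT, 30.6, 28.6 and 31.9 in GFP, 36.3, 31.5 and 31.6 in GSTA4, and 28.2, 29.3 and 31.2 in OSK. All groups overlapped but OSK and GSTA4, which were just apart, and the F test gave adjusted p = 0.337. In OSK against WT its log2 fold change was -0.07 with a 95% interval of -0.25 to 0.11. In OSK against GSTA4 it was -0.17 (adjusted p = 0.126), which passed in 1 of 19 alternative runs (0.0358). RRM1 rose by 0.86 in GFP against WT, 0.63 in GSTA4 against WT and 1.16 in OSK against WT. Its rise of 0.31 in OSK against GFP (adjusted p = 0.00824) was lost without OSK replicate 3 (0.0677). TYMS rose by 0.97, 0.98 and 1.27 in the same 3 comparisons with WT and did not pass in OSK against GFP (0.30, interval -0.06 to 0.67).

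**Figure D3:**
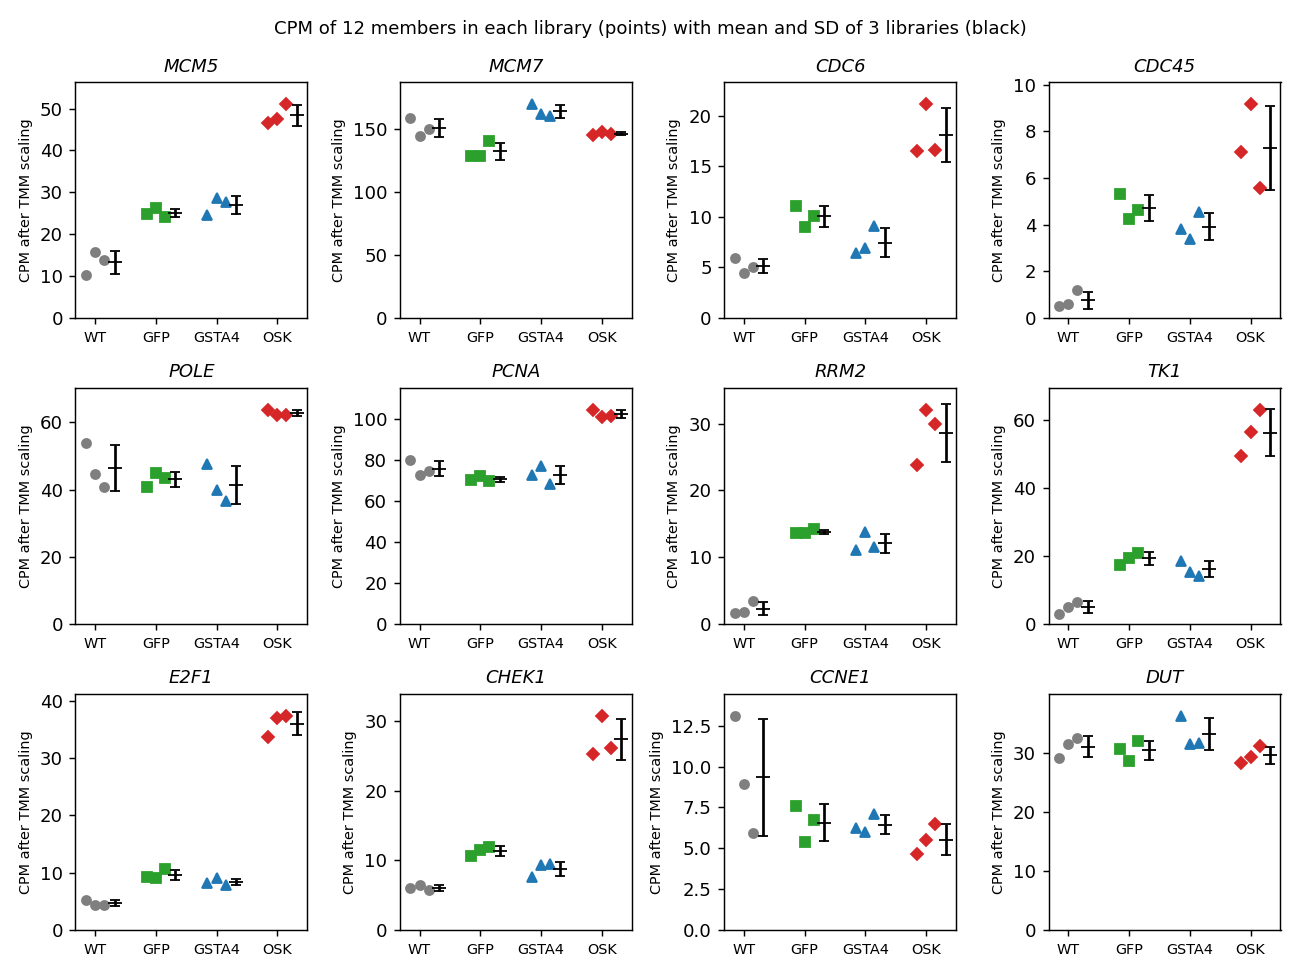
CPM of 12 of the genes in each library (points) with the mean and SD of the 3 libraries of a group (black), every y axis starting at 0. RRM2, TK1, E2F1 and CHEK1 step up from WT to GFP and GSTA4 and again to OSK, for POLE and PCNA the OSK points alone lie above all others, MCM7 and DUT are nearly level, and CCNE1 is spread widely in WT, from 5.96 to 13.1.

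The regulators comprised 3 E2F factors, 2 E-type cyclins and CDC25A, the phosphatase that activates cyclin-dependent kinases. E2F1 and E2F2 are activators and E2F8 an atypical repressor. E2F1 was at 5.29, 4.41 and 4.43 CPM in WT, 9.28, 9.03 and 10.6 in GFP, 8.26, 9.01 and 7.84 in GSTA4, and 33.7, 37 and 37.4 in OSK. No groups overlapped for E2F1, though the highest GSTA4 library (9.01) was just below the lowest GFP library (9.03). It rose by 1.03 in GFP against WT (log2, SE 0.134, adjusted p = 1.82e-05). OSK stood 1.90 above GFP (SE 0.113, adjusted p = 2.2e-11), and E2F1 rose by 2.11 in OSK against GSTA4 (SE 0.115, adjusted p = 3.44e-12), the largest changes of the list in the latter 2 comparisons. E2F2 was at 0.498, 0.661 and 0.236 CPM in WT, 3.5, 2.29 and 2.99 in GFP, 2.03, 2.33 and 1.93 in GSTA4, and 5.19, 6.08 and 7.81 in OSK. WT was below and OSK above all others. E2F2 rose by 2.67 in GFP against WT (SE 0.356, adjusted p = 2.48e-05) and by 3.79 in OSK against WT (SE 0.332, adjusted p = 7.12e-09).

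E2F8 had very few reads: 2, 1 and 1 in WT, 14, 13 and 8 in GFP, 4, 1 and 5 in GSTA4, and 6, 8 and 14 in OSK. WT and GSTA4 overlapped near the floor, and GFP and OSK were above WT in every library. The 35 reads of the GFP libraries and the 4 of the WT libraries gave a ratio of 9.76 per scaled library (95% interval 3.49 to 37.8, counting error only). For GSTA4 against GFP the ratio was 0.274 (interval 0.121 to 0.566). E2F8 passed as higher in GFP against WT (adjusted p = 0.00276) and in OSK against WT (adjusted p = 0.00334). Both calls also held without the filter on low counts. In GSTA4 against GFP E2F8 passed as lower (adjusted p = 0.0241). That call was lost without GFP replicate 1 (0.0848), GFP replicate 2 (0.0706), GSTA4 replicate 1 (0.07) or GSTA4 replicate 2 (0.121). It was also lost without the filter (0.0989). E2F8 passed the filter through GFP and OSK libraries only, the groups where it was high. Its calls are therefore descriptions and no independent support.

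Cyclin E1 (CCNE1) was the only gene of the list that fell in OSK against WT. It was at 13.1, 8.96 and 5.96 CPM in WT, 7.6, 5.38 and 6.73 in GFP, 6.23, 6 and 7.09 in GSTA4, and 4.62, 5.51 and 6.47 in OSK. WT replicate 1 was the highest library and WT replicate 3 among the lower ones, so that WT overlapped every other group. CCNE1 fell by 0.75 in OSK against WT (log2, SE 0.228, adjusted p = 0.0102). Without WT replicate 1 it fell by 0.42 and did not pass (adjusted p = 0.111), nor did it without OSK replicate 1 (0.0565). CCNE2 rose by 1.17 in OSK against WT (SE 0.283, adjusted p = 0.00197) and passed in no other comparison. CDC25A rose by 1.45 in OSK against WT (adjusted p = 4.37e-05). Its other calls were lost without single libraries: GFP against WT (0.90) without GFP replicate 2 (adjusted p = 0.0652), GSTA4 against WT (0.75) without WT replicate 3 (0.0638) or GSTA4 replicate 1 (0.111), and OSK against GSTA4 (0.71) without GSTA4 replicate 2 (0.0531), GSTA4 replicate 3 (0.0566) or OSK replicate 2 (0.0684).

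Claspin (CLSPN) and the kinase CHEK1 signal stalled forks, and BRCA1 and BRCA2 protect and repair them. All 4 rose both in GFP and in OSK relative to WT. CHEK1 was at 5.97, 6.46 and 5.66 CPM in WT, 10.6, 11.4 and 12 in GFP, 7.56, 9.31 and 9.43 in GSTA4, and 25.2, 30.8 and 26.2 in OSK. The 4 groups did not overlap, in the order WT, GSTA4, GFP, OSK. CHEK1 rose by 0.91 in GFP against WT (log2, SE 0.137, adjusted p = 8.2e-05) and by 1.27 in OSK against GFP (SE 0.121, adjusted p = 2.88e-08). In GSTA4 against GFP it fell by 0.38 (SE 0.132, adjusted p = 0.0376). That call was lost without GFP replicate 2 (0.0739), GFP replicate 3 (0.1), GSTA4 replicate 1 (0.178) or GSTA4 replicate 2 (0.0534). It was also lost without the filter on low counts (0.0864). BRCA1 was at 2.8, 2.64 and 3.78 CPM in WT, 7.83, 8.46 and 8.42 in GFP, 6.35, 8.71 and 7.43 in GSTA4, and 14.4, 15.1 and 14 in OSK. GFP and GSTA4 overlapped between a lower WT and a higher OSK. BRCA1 rose by 1.41 in GFP against WT (SE 0.174, adjusted p = 1.04e-05) and by 0.81 in OSK against GFP (SE 0.15, adjusted p = 0.000148). CLSPN rose by 1.27 and 0.79 in the same comparisons. BRCA2 rose by 1.26 in GFP against WT and was -0.03 in OSK against GFP (95% interval -0.60 to 0.53). BRCA2 also passed in OSK against GSTA4 (0.71, adjusted p = 0.0471), where the call was lost without any 1 GFP or GSTA4 library, OSK replicate 2 or OSK replicate 3 (adjusted p up to 0.228).

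CHAF1A and CHAF1B are subunits of the factor that places histones on new DNA, and SLBP binds the stem-loop of histone mRNAs. CHAF1A was at 18.3, 17.8 and 17 CPM in WT, 19.8, 15.9 and 24 in GFP, 24, 23.7 and 25.6 in GSTA4, and 33.2, 38.7 and 35.9 in OSK. GFP overlapped both WT and GSTA4, and OSK was above all. CHAF1A rose by 0.85 in OSK against GFP (log2, SE 0.114, adjusted p = 3.32e-06) and by 0.47 in GSTA4 against WT (SE 0.117, adjusted p = 0.00341). CHAF1B was at 11.1, 13.3 and 11.3 CPM in WT, 13.2, 16 and 18.7 in GFP, 13.6, 13.2 and 18.6 in GSTA4, and 21.1, 18.4 and 19.1 in OSK. OSK was apart from WT only. CHAF1B rose by 0.72 in OSK against WT (SE 0.144, adjusted p = 0.000365), while its calls in GFP against WT (0.43) and OSK against GSTA4 (0.36) rested on single libraries. The first was lost without WT replicate 1, WT replicate 3, GFP replicate 2, GFP replicate 3 or OSK replicate 2 (adjusted p up to 0.195). With only the 6 libraries compared it was lost as well (0.0577). The second was lost without GSTA4 replicate 1, GSTA4 replicate 2 or any 1 OSK library (up to 0.173). SLBP was at 71.7, 65.9 and 63.9 CPM in WT, 68.5, 73.1 and 75 in GFP, 64.7, 65.7 and 64.5 in GSTA4, and 62.1, 62.7 and 66.2 in OSK. GFP lay above GSTA4 and OSK and overlapped WT, and the F test gave adjusted p = 0.0817. SLBP fell by 0.18 in OSK against GFP (SE 0.0662, adjusted p = 0.0297). This call was lost without GFP replicate 2 (0.0865), GFP replicate 3 (0.12), OSK replicate 1 (0.115) or OSK replicate 2 (0.097). It was also lost without the filter on low counts (0.16).

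By their group means, some partners within one complex or step moved by different amounts. The ratio of their CPM in each library, as log2, shows this without the scaling between libraries; its level depends on gene length, so only its change between groups is read. RRM2 over RRM1 was -4.03, -4.01 and -3.17 in WT, -1.90, -1.90 and -1.93 in GFP, -1.81, -1.78 and -2.03 in GSTA4, and -1.27, -0.96 and -1.27 in OSK. The mean of this ratio was 2.56 higher in OSK than in WT, and WT, OSK and the pair of GFP and GSTA4 did not overlap. CDT1 over GMNN was 1.51 higher in OSK than in WT, and CCNE2 over CCNE1 was 1.87 higher. The latter ratio ran from -2.72 to -1.66 in WT, and WT and GFP overlapped for it. In the next ratio the mean of MCM2 to MCM6 is one of CPM, in which MCM3 weighs most. MCM7 over the mean of MCM2 to MCM6 was 2.24, 2.04 and 2.10 in WT, 1.68, 1.52 and 1.62 in GFP, 2.12, 1.97 and 1.94 in GSTA4, and 1.27, 1.18 and 1.16 in OSK. Its mean differed from that in WT by -0.52 in GFP and -0.92 in OSK, and WT and GSTA4 overlapped. For the 4 ratios and 6 comparisons, 24 exact permutation tests were run, two-sided. With 3 libraries against 3 an exact permutation test cannot go below p = 0.1, so none could pass. The lowest value found after Benjamini-Hochberg adjustment was 0.133.

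**Figure D4:**
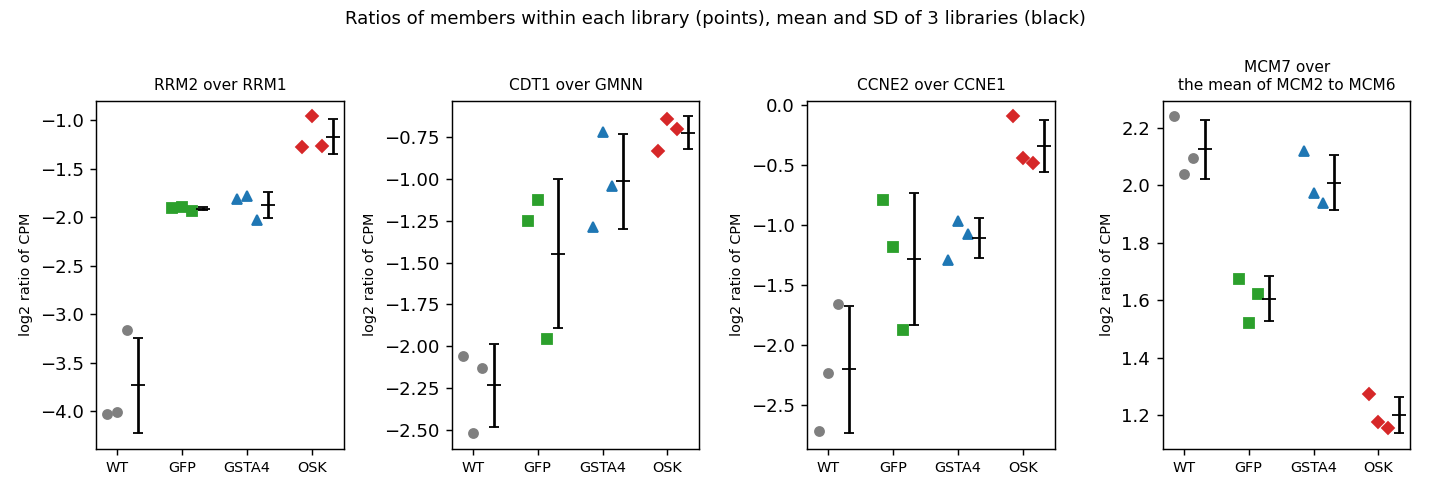
Log2 ratios of CPM between paired genes in each library (points), with the mean and SD of the 3 libraries of a group (black). RRM2 over RRM1, CDT1 over GMNN and CCNE2 over CCNE1 are lowest in WT and highest in OSK by their means, and MCM7 over the mean of MCM2 to MCM6 is highest in WT and GSTA4 and lowest in OSK. The y axes do not start at 0.

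A further 59 genes of the pathway were listed, of which 58 were tested and RNASEH2A, with 0 to 4 reads a library, was not. In OSK against WT 24 rose and 8 fell, or 55.2% of the 58 beside 45.4% of all genes, with a median log2 fold change of 0.26. In GFP against WT 13 rose and 3 fell (27.6% beside 22.2%, median 0.10), and in OSK 23 rose and 7 fell relative to GFP (51.7% beside 45.9%, median 0.22) and 26 rose and 8 fell relative to GSTA4 (58.6% beside 47.8%, median 0.23). In GSTA4 against WT 11 rose and 7 fell (31% beside 38.6%), and in GSTA4 against GFP 2 rose and 7 fell (15.5% beside 29.2%). Without GFP replicate 1 the 9 called in GSTA4 against GFP became 5. The largest called change in OSK against WT was in PCLAF, a PCNA-binding factor, with 2, 0 and 6 reads in WT, 6, 22 and 30 in GFP, 17, 27 and 20 in GSTA4, and 30, 46 and 28 in OSK (3.72 in OSK against WT, SE 0.632, adjusted p = 5.68e-05). In OSK against GFP it was SAMHD1, an enzyme that breaks deoxynucleotides down, at 81.3, 68.1 and 89 CPM in OSK and 22.9 to 27.6 in all other libraries (1.69, SE 0.104, adjusted p = 3.47e-11). In GSTA4 against GFP it was the origin-firing kinase CDC7, which fell by 0.93 (SE 0.17, adjusted p = 0.000266) from 8.97, 7.96 and 7 to 4.64, 3.68 and 4.13 CPM. In OSK against GSTA4 cyclin A2 (CCNA2) rose by 1.99, from 10.6, 14.6 and 11.2 to 40, 51.4 and 52.9 CPM. The smallest called change was in RBL2, a relative of the retinoblastoma protein (0.16 in OSK against GSTA4), which was lost without GSTA4 replicate 1 (adjusted p = 0.0943), GSTA4 replicate 3 (0.0515) or OSK replicate 2 (0.0923).

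All 15 mitosis genes rose in GFP, GSTA4 and OSK against WT and in OSK against GFP and GSTA4. In the same order, 11%, 19.7%, 22.7%, 23.1% and 24.1% of all genes passed as higher. Relative to WT their medians were 1.70 in GFP and 2.90 in OSK, beside 0.68 and 1.02 for the replication genes. In GSTA4 against GFP 7 fell and 1 rose (53.3% beside 29.2% of all genes), with a median of -0.36. The 8 became 5 without GSTA4 replicate 2. By read level, the 24 replication genes with the lowest mean over all libraries had a median of 1.47 in OSK against WT and the upper 25 one of 0.72.

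Some of the 49 share exonic bases with other genes, whose reads could be counted with theirs or dropped. In GENCODE release 29, 23 share any base and 10 share over 10%. The largest shares were 46.6% for TYMS, 37.1% for CCNE2, 35.1% for POLA2, 23.6% for MCM2 and GINS4, 21.6% for PRIM1 and 20.2% for RRM2. DUT (14.5%), GINS3 (10.9%) and RFC5 (10.6%) followed. The strand setting of the counting is not given in the sources used here, so values of these genes are uncertain to that extent.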

How the data were processed

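Poly(A) RNA of 12 ARPE-19 libraries was analysed from the deposited table of raw counts per gene, which the authors made from their reads. STAR 2.7.1a and featureCounts 1.6.2 are named in the submitters' processing notes, with builds GRCh38 and hg38. Annotation release and strand setting are not given in the sources used here. Of 60605 rows, 20014 without a symbol (0.485% to 0.822% of reads) were left out. The members and lists were chosen with earlier results of these data known.

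Counts were tested with edgeR 4.0.16 in R 4.3.3: TMM scaling, filterByExpr, 1 fit over the 12 libraries and 4 groups, quasi-likelihood F tests and Benjamini-Hochberg adjustment over all 15179 genes at 0.05. The fit was tested on simulated data. All members are named. By rule, values in every library are given for the 2 members of each role with the lowest F-test p, those with the largest and smallest called change of each contrast, those called against the direction of most, and those that did not pass the F test. Results were recomputed with RLE scaling, with library sizes unscaled, without the filter, on genes averaging 1 CPM or more, with a replicate block, with only the 6 libraries compared, with a log2 change of at least 1 required, with DESeq2 1.42.0 and without each library in turn. Intervals on reads cover counting error only.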

Additional observations from a re-analysis of the deposited data

How the results depend on the processing

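No called fold change changed sign under any alternative run. The balance of the calls in GSTA4 against GFP did turn: from 1 higher and 3 lower to 2 higher and 1 lower without the filter on low counts, and to 1 higher and 0 lower without GSTA4 replicate 1. With a log2 change of at least 1 also required, the genes called numbered 13 in GFP against WT, 1 in GSTA4 against GFP, 7 when OSK was set against GFP, 9 for OSK against GSTA4, 9 in GSTA4 against WT and 25 in OSK against WT. Leaving out 1 library gave 23 to 28, 1 to 9, 23 to 30, 28 to 34, 20 to 28 and 38 to 41 in the same order, and 39 to 42 for the F test. The 1 came without GSTA4 replicate 1 and the 9 without WT replicate 1. The other alternatives gave 24 to 30, 3 to 6, 24 to 29, 31 to 35, 23 to 29 and 40 to 41, and the cause was not tested. Of the genes called, 21 of 28, 1 of 4, 22 of 28, 27 of 33, 19 of 27 and 37 of 41 passed in every alternative that tested them, other than the log2 limit. E2F8, with a mean of 0.449 CPM, was not tested in the run on genes averaging 1 CPM or more. Nor was it tested with only the 6 libraries compared in GFP against WT, GSTA4 against GFP or OSK against WT. Its calls against WT are among the 21 and the 37 without those runs. With library size alone, 39.8% of the genes called in OSK against GFP over the whole table were higher, against 50.4% with TMM, and 23 of the 49 rose and 1 fell. Pairing by replicate number was weak and uneven. Over 18 pairs of the same number, correlations of deviations ran from -0.02 to 0.15, and in 9 the best match was the same number. The 3 correlations over 0.1 were those of WT replicate 1 with replicate 1 of GFP (0.153), GSTA4 (0.12) and OSK (0.106). Their source was not tested. With a replicate block the counts were 28, 6, 29, 34, 29 and 41, and 41 for the F test. Some genes not called in GSTA4 against GFP passed in a part of 19 alternatives, the log2 limit aside. These were BRCA2 in 7, CDC6 and RRM1 in 5 each, CHAF1A in 3, RFC4 in 2 and MCM3 in 1. Genes with few reads, E2F8 first, are limited by depth.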
